A study of Lactuca sativa with 9 samples.

Results

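Cyclin and kinesin genes of lettuce leaves were examined at 3 light intensities. They were found by searching the gene descriptions deposited with the FPKM table (mapped fragments scaled to transcript length and to the size of the library) for the letters "cyclin" or "kinesin". Of the 35342 genes in the table, 347 matched, 1 kinesin light chain was left out, and 346 remained. The search also picks up genes that are no cell cycle genes by their annotation. The description of 212 genes was "F-box domain, cyclin-like", 5 were annotated to the initiation of transcription (TFIIB-like), and 1 encodes a ribosome-recycling factor of the chloroplast, whose name holds the letters of the search. LOC111917727 is described by a cyclin domain, but was annotated to the assembly of meiotic chiasmata and was set apart as well. The other 127 genes are cyclins, cyclin-dependent kinases (CDKs), CDK inhibitors and kinesins, and are called the core genes here. They comprised 16 cyclins of the A and B type, 15 D cyclins, 8 cyclins named C, H, L or T, 7 cyclins of the P type, 4 CDKs, 10 CDK inhibitors and 67 kinesins.

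The leaves came from 24-d-old plants of the cultivar Hong Kong Glass, and 3 biological replicates were sequenced per group. By the study's methods, Las_SL stood for strong light at 340, Las_ML for 175 and Las_WL for weak light at 60 µmol per square metre per second, whereas another passage of the paper exchanges the values of Las_SL and Las_WL. Apart from the intensity, cultivar, age and growth conditions were shared by the 3 groups. Cut leaves of a sample were mixed before RNA extraction, so that a library holds many cell types, and in such bulk samples fewer cells of a type and less RNA per cell cannot be told apart. The paper describes depletion of rRNA and digestion of linear RNA with RNase R, while the labels describe selection of polyadenylated RNA, so the FPKM of a linear mRNA may rest on what such a digestion left.

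Cyclins are the regulatory partners of CDKs. In plants, D cyclins act at the entry into the cell cycle with the kinase CDKA, A cyclins act from DNA replication to the entry into mitosis, and B cyclins act in mitosis together with the plant-specific B-type CDKs, whose transcripts accumulate around mitosis. Kinesins are motor proteins that move along microtubules. Some of them build the spindle and the phragmoplast, the structure that lays down the new cell wall, and others carry cargo or organise microtubules in cells that do not divide. Cyclins C, H, L and T work mainly with kinases that act on RNA polymerase II, and the P cyclins of Arabidopsis have been linked to nutrient signalling. In a leaf, divisions take place in young, growing tissue and cease as the leaf expands.

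The letter of a cyclin was only partly given. The descriptions of 13 of the 16 A and B type genes read "Cyclin A/B/D/E", 1 read cyclin A, none named B, and 2 had no letter. A and B cyclins therefore could not be separated, and the shared label leaves D and E open too. The class name thus stands for cyclins that were not placed in another class, and the type of each gene is not known. Of the 15 D cyclins, 5 were named so in the description and the others were placed there by the KEGG orthology of their row. Among the tested P cyclins, only LOC111917629 and LOC111886418 were described as cyclin-P3-1. The others were described as cyclin-like proteins and placed by a KEGG orthology entry, and whether they are P cyclins was not checked. A mean FPKM of at least 0.5 over the 9 libraries, the limit set for testing, was reached by 99 of the 127 core genes (14 A and B type, 9 D, 7 C, H, L or T and 5 P cyclins, 4 CDKs, 10 CDK inhibitors and 50 kinesins) and by 156 of the 212 F-box genes. Of the D cyclins without a test, LOC111916124 had the highest mean FPKM, 0.462, and its values were nearly the same as those of LOC111900230, another gene described as cyclin D3, so that reads of near-identical copies may have been split between the pair.

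CDK B2-2 and most A and B type cyclins differed far more between libraries of the same light group than between groups. CDK B2-2 (LOC111878453) is a B-type kinase whose FPKM was 23.5, 0.022 and 12.9 in the Las_SL libraries 1 to 3, 0.788, 15.4 and 21.0 in Las_ML1 to 3 and 112, 2.09 and 0.324 in Las_WL1 to 3. Las_WL1 was 346 times as high as Las_WL3 and 4.77 times as high as Las_SL1, the next highest library. All 3 groups overlapped, and each of them held a library with an FPKM under 1 and one above 20.

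The most abundant A or B type cyclin, LOC111895651, followed the same order. Its FPKM was 18.5 in Las_SL1, listed at 0 in Las_SL2 and 8.61 in Las_SL3, 0.498, 10.5 and 14.0 in Las_ML1 to 3, and 73.4, 0.838 and 0.180 in Las_WL1 to 3. The second, LOC111883320, a gene described as cyclin without a letter, was measured at an FPKM of 10.1, 0.239 and 5.14 in Las_SL, 0.810, 6.54 and 8.92 in the Las_ML libraries and 46.5, 1.52 and 0.436 in Las_WL. In both genes Las_WL1, Las_SL1, Las_ML3, Las_ML2 and Las_SL3 were high in that order, and the remaining 4 libraries were low. Of the 14 tested genes of this class, 13 were highest in Las_WL1 and 11 were lowest in Las_SL2. The exception was LOC111892880, with an FPKM between 0.312 and 0.947 and its lowest value in Las_WL1. Summed over the 16 genes of the class, the FPKM ranged from 1.62 to 77.9 in Las_SL, from 7.13 to 67.6 in the Las_ML libraries and from 2.36 to 345 in Las_WL.

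**Figure D1:**
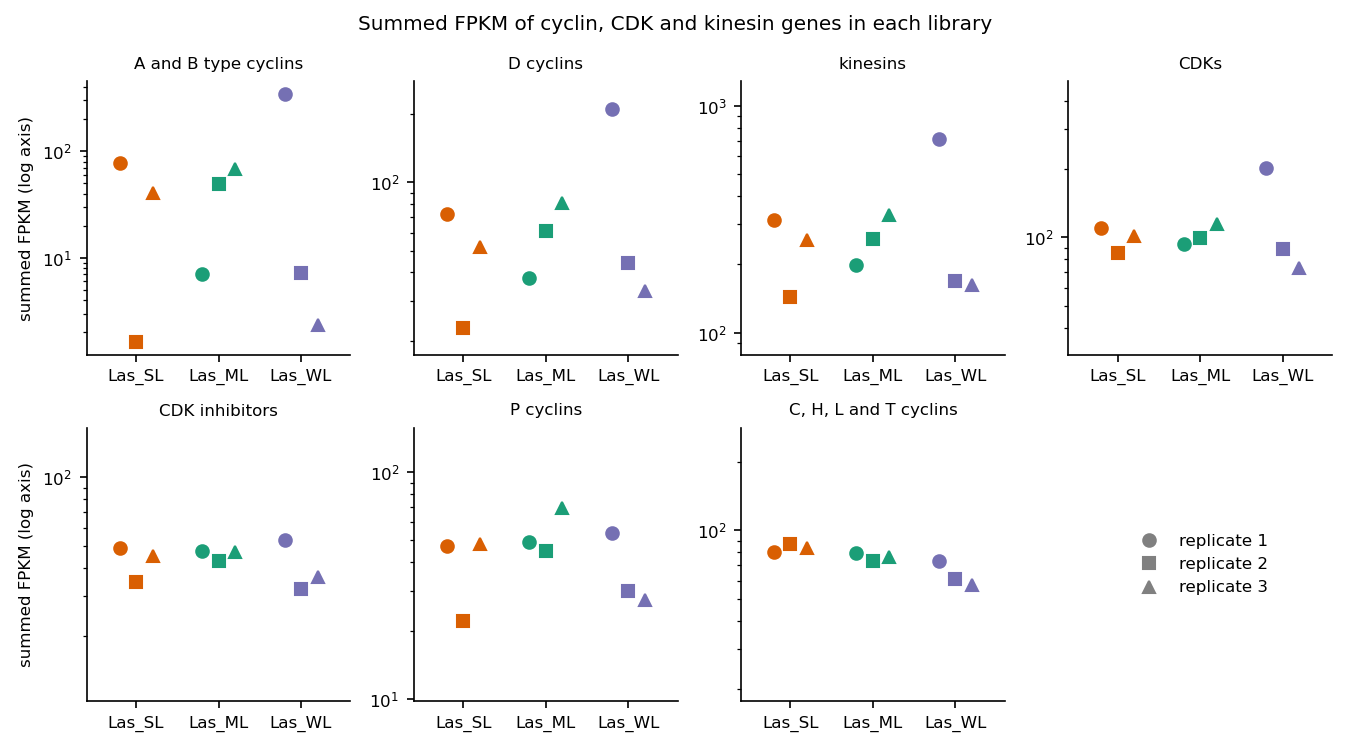
Summed FPKM (log axis) of all genes of 7 classes in each library, by light group, with 1 symbol per replicate. The A and B type cyclins range from 2.36 to 345 within Las_WL, whereas the C, H, L and T cyclins stay between 57.3 and 87.0 in all 9 libraries.

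D cyclins ranged from genes that shared this order to genes that varied little. Cyclin D3 (LOC111877352) had an FPKM of 13.2, 0.499 and 7.49 in Las_SL, 2.79, 8.21 and 12.5 in the Las_ML libraries and 45.8, 3.46 and 0.616 in Las_WL. The D cyclin with the highest mean, LOC111880250, showed a smaller range, with an FPKM of 10.2, 1.72 and 8.003 in Las_SL, 3.49, 11.2 and 14.2 in the Las_ML libraries and 40.0, 11.5 and 5.62 in Las_WL. Again Las_WL1 was the highest library and Las_SL2 the lowest. Cyclin D1 (LOC111887230), in contrast, lay between an FPKM of 7.93 and 14.5 in all 9 libraries, with its highest values in Las_ML3, Las_ML1 and Las_WL1. A second row of the table carries the same name as the cyclin D1 gene, has no description and was not counted.

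Kinesins are the largest class and spanned a similar range. LOC111889633, a kinesin described by its motor domain only, had an FPKM of 17.4, 0.212 and 9.09 in Las_SL, 0.994, 11.1 and 14.8 in the Las_ML libraries and 79.8, 1.299 and 0.542 in Las_WL. It was chosen after its values were seen, as were LOC111877352 above and the 3 kinesins that follow. KIN-5C (LOC111882187) belongs to the family of kinesins that slide apart antiparallel microtubules in the spindle and phragmoplast, and its FPKM was 5.90, 0.0525 and 2.94 in Las_SL, 0.287, 3.17 and 4.97 in the Las_ML libraries and 25.9, 0.359 and 0.0807 in Las_WL. The KIF22-like kinesin LOC111920706, whose namesake in animals moves chromosome arms, ranged from an FPKM of 0.328 in Las_WL3 to 24.3 in Las_WL1. Each of these genes had its highest value in Las_WL1, and Las_SL1 came second.

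The 2 most abundant kinesins were steady. LOC111903715 had an FPKM between 15.8 and 22.6 in the 9 libraries. KIN-8B (LOC111906379) had an FPKM of 17.4, 15.1 and 14.5 in Las_SL, 16.2, 18.3 and 16.5 in the Las_ML libraries and 12.7, 11.9 and 18.6 in Las_WL. A further kinesin, LOC111915740, again chosen after its values were seen, was highest in the libraries numbered 2 of every group, with an FPKM of 2.51 in Las_SL2, 2.85 in Las_ML2 and 3.78 in Las_WL2 against 0.765 to 1.38 in the other 6.

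**Figure D2:**
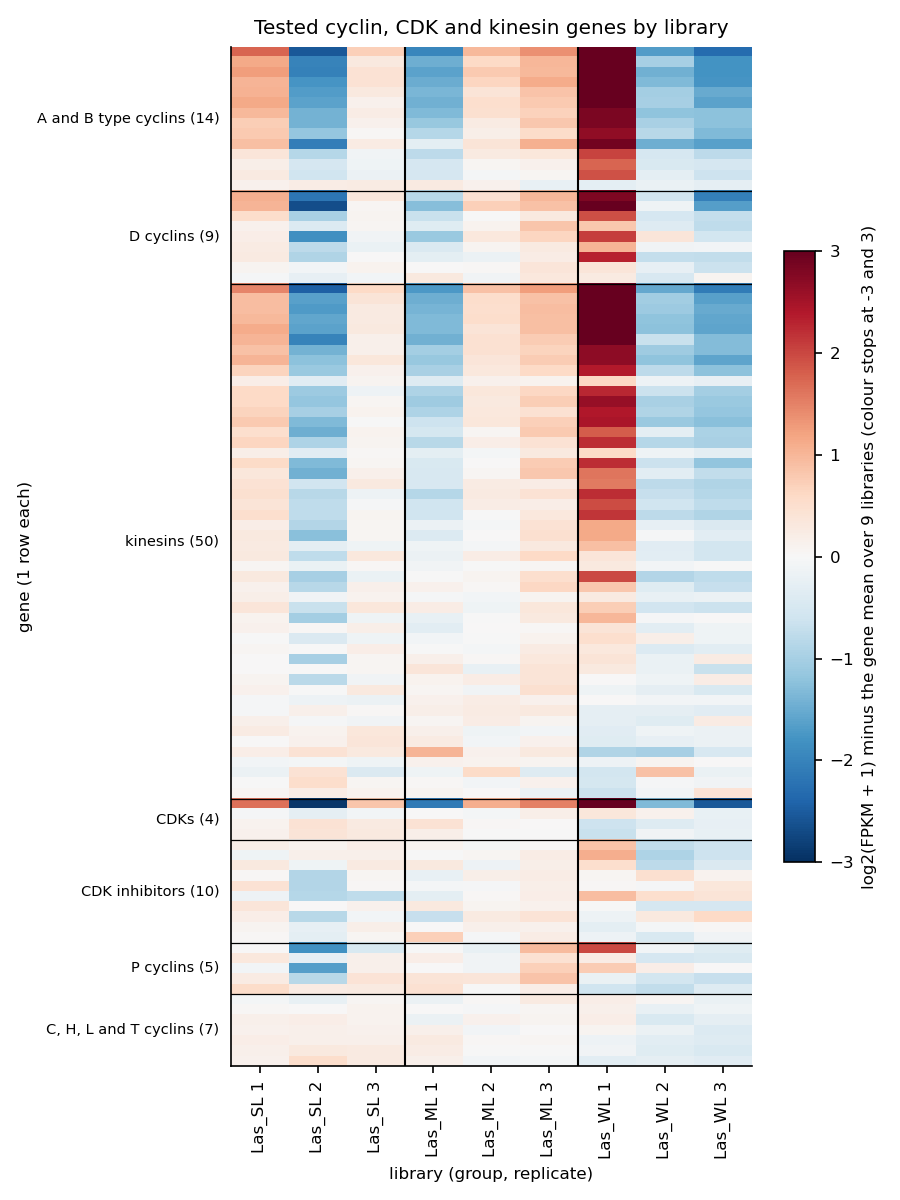
log2(FPKM + 1) of the 99 tested core genes minus the mean of each gene over the 9 libraries, 1 row per gene and 1 column per library, ordered within a class by the correlation with CDK B2-2. The column of Las_WL1 is red and that of Las_SL2 blue for most A and B type cyclins and many kinesins, while rows of the C, H, L and T cyclins are nearly white.

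How far the libraries of a group lay apart was measured as the SD of log2(FPKM + 1) around the 3 group means. Its median was 1.71 over the 14 A and B type cyclins, 1.00 over the 9 D cyclins, 0.585 over the 50 kinesins and 0.575 over the 99 core genes, and 0.314 over all 26145 genes tested. It was 0.446 for the P cyclins, 0.389 for the CDK inhibitors and 0.201 for the CDKs. The C, H, L and T cyclins had the lowest median of these classes, 0.140. The highest single value among the core genes was that of CDK B2-2, 2.68. Without Las_WL1 the median was 1.06 for A and B type cyclins, 0.434 for D cyclins, 0.433 for kinesins, 0.422 for the core genes and 0.213 for all genes. No p-value was computed for these medians, since the genes were chosen with earlier results known and are not independent of each other.

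**Figure D3:**
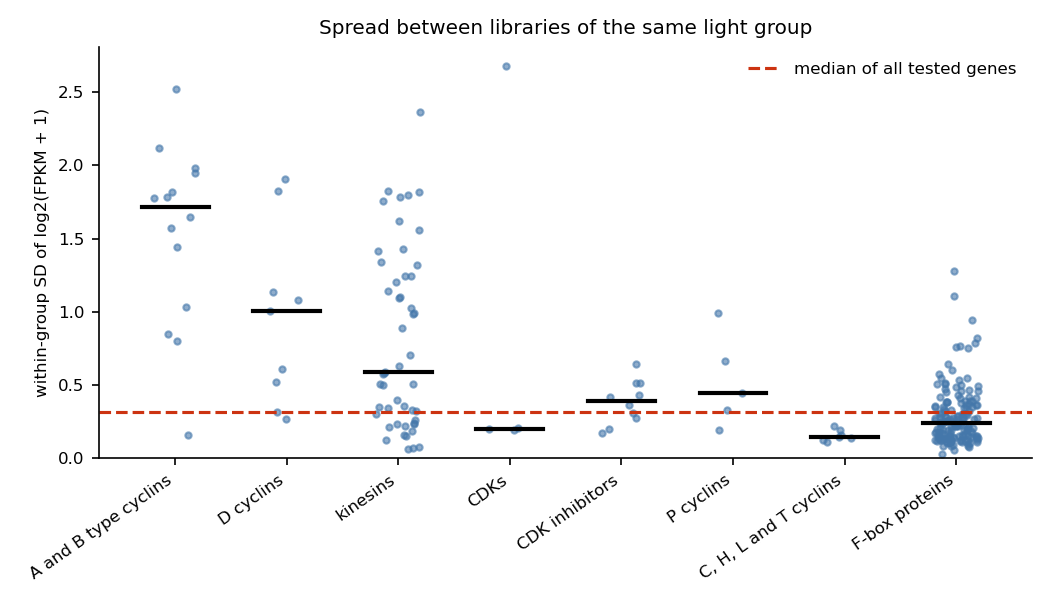
Within-group SD of log2(FPKM + 1), 1 point per tested gene, by class, with a black line at the class median and a dashed line at the median of all tested genes (0.314). Nearly all A and B type cyclins lie above the dashed line and all C, H, L and T cyclins below it.

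Las_WL1 was the highest library for 65 of the 99 core genes (65.7%) and for 35.1% of all genes tested, and Las_SL2 was the lowest for 52 of them (52.5%) and for 17.9% of all genes. The library that stood out for these genes was thus often at an extreme in the rest of the table too. Las_WL1 was the lowest library for 27.7% of all genes but for 10 of the 99 core genes.

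To see which genes shared the order of CDK B2-2, Pearson's r of log2(FPKM + 1) with LOC111878453 was taken over the 9 libraries. It was at least 0.9 for 40 of the other 98 tested core genes and for 1833 of the other 26144 genes (7.01%). These 40 were 11 of 14 A and B type cyclins, 4 of 9 D cyclins and 25 of 50 kinesins, and none of the C, H, L, T or P cyclins, the CDK inhibitors or the other CDKs. The limit of 0.9 was chosen after the values were seen. The D cyclin LOC111876955 lay just inside it (r = 0.902) and the kinesin LOC111912507, described as KP1, just outside (r = 0.890). A share of r values this high over 9 points rests partly on Las_WL1, yet with Las_WL1 left out the number was 41 of 98 (5.46% of all other genes), with Las_SL2 left out 41 of 98 (10.1%), and with both left out 39 of 98 (7.57%). The correlation describes these 9 libraries, in each of which all genes share the depth and handling of that library, and carries no p-value.

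The limit divided the kinesins into sets of similar level, with a median mean FPKM of 4.85 for the 25 inside it and 3.98 for the 25 outside. The lowest r among the core genes (r = -0.789) belonged to the kinesin-1-like gene LOC111907157, which had an FPKM of 2.17 in Las_WL1, its lowest library, and 5.64 in Las_WL3, its highest. Like the other genes that are named only for their place in an order, it was chosen after its values were seen. Among all genes tested, those with the highest r were mostly described as hypothetical proteins, with the histone H2B gene LOC111886066 (r = 0.998) among the first 5.

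Other genes of the cell cycle, taken from lists of descriptions that do not overlap with the genes above, were compared with CDK B2-2 in the same way, where 7.01% of all genes had r of at least 0.9 and 35.1% were highest in Las_WL1. Of 49 histone genes, which are transcribed while DNA is replicated, 32 had r of at least 0.9 and 43 were highest in Las_WL1, where their summed FPKM was 11564 against 984 in Las_WL3 and 1180 in Las_SL2. An r of at least 0.9 was found for 40 of 120 genes annotated to DNA replication (median r 0.75), 24 of 47 genes of the spindle, its checkpoint and chromosome structure, and 5 of 6 regulators of the cycle (E2F and retinoblastoma-related genes). In the 3 comparisons 1 gene of these 4 lists was called. It was 1 of the 120 DNA replication genes and was higher in Las_SL than in Las_WL, where 2.73% of all genes were called higher.

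Marker lists for the tissue were given beside these values. All 38 tested genes of chlorophyll a/b-binding proteins and the small Rubisco subunit had r under 0.9 (median -0.24), and their summed FPKM was 33464, 25757 and 24953 in Las_SL, 29144, 49613 and 36577 in the Las_ML libraries and 20569, 58126 and 47686 in Las_WL. The sum was lowest in Las_WL1, where the A and B type and D cyclins were highest, and Las_SL3 and Las_SL2 came next. In Las_SL vs. Las_WL, 2 of the 38 genes were called lower in Las_SL, against 0.199% of all genes. Of 11 genes described by the QLQ domain, which growth-regulating factors of growing leaves carry, 9 were highest in Las_WL1. Only 1 of the 11 had r of at least 0.9 (median 0.73). Their sum was 102 in Las_WL1 and 24.8 to 70.0 in the other libraries, with 58.9 in Las_SL2, where most A and B type and D cyclins were lowest. The only gene tested for the shoot meristem, described as knotted1-like (LOC111890976), had an FPKM between 1.66 and 3.21. No gene of the list for senescing leaves was tested. The part of leaf age, sampled position or cell type in the spread between libraries was not tested.

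In Las_SL vs. Las_ML no core gene and no F-box gene was called at an adjusted p below 0.05 (limma, Benjamini-Hochberg over 26145 genes) and a log2 fold change of 1 or more in either direction, with 0.00382% of all genes called. At an unadjusted p below 0.05, without a limit on the fold change, 2 of the 99 core genes passed, against 5.52% of all genes (3.89% higher and 1.63% lower). Both were lower in Las_SL, the CDK inhibitor LOC111876716 by a log2 fold change of -0.58 and the kinesin LOC111912736 by -0.28. The median log2 fold change was -0.12 over the core genes and 0.05 over all genes. With Las_WL1 and Las_SL2 left out, the core median was 0.14 and that of the A and B type cyclins 0.54, so the direction depended on which Las_SL libraries entered. Las_WL1 enters this comparison through the spread alone, and without it no core gene was called or had an adjusted p below 0.05, against 0.00765% of all genes by either rule.

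In Las_WL vs. Las_ML again no gene of either kind was called, and 0.0% of all genes was. At an unadjusted p below 0.05, 11 of the 99 core genes passed, 1 higher and 10 lower in Las_WL, against 13.8% of all genes (0.788% higher and 13.0% lower). The smallest p belonged to KIN-5D (LOC111887547), with a log2 fold change of -1.27 ± 0.25 (SE) and an adjusted p of 0.146 (limma). The A and B type cyclins had a median log2 fold change of 0.20 and the kinesins of 0.03, and all genes of -0.13. Without Las_WL1 the medians were -1.19 for A and B type cyclins, -0.58 for D cyclins, -0.64 for kinesins and -0.26 for all genes, and 1 core gene, the CDK inhibitor LOC111884575, passed an adjusted p of 0.05 with a log2 fold change of -0.70 (0.486% of all genes). With the limit on the fold change none was called (0.295% of all genes). The medians of A and B type cyclins, D cyclins and kinesins between weak and medium light thus changed direction when Las_WL1 was left out. Class medians with any other single library left out were not taken.

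**Figure D4:**
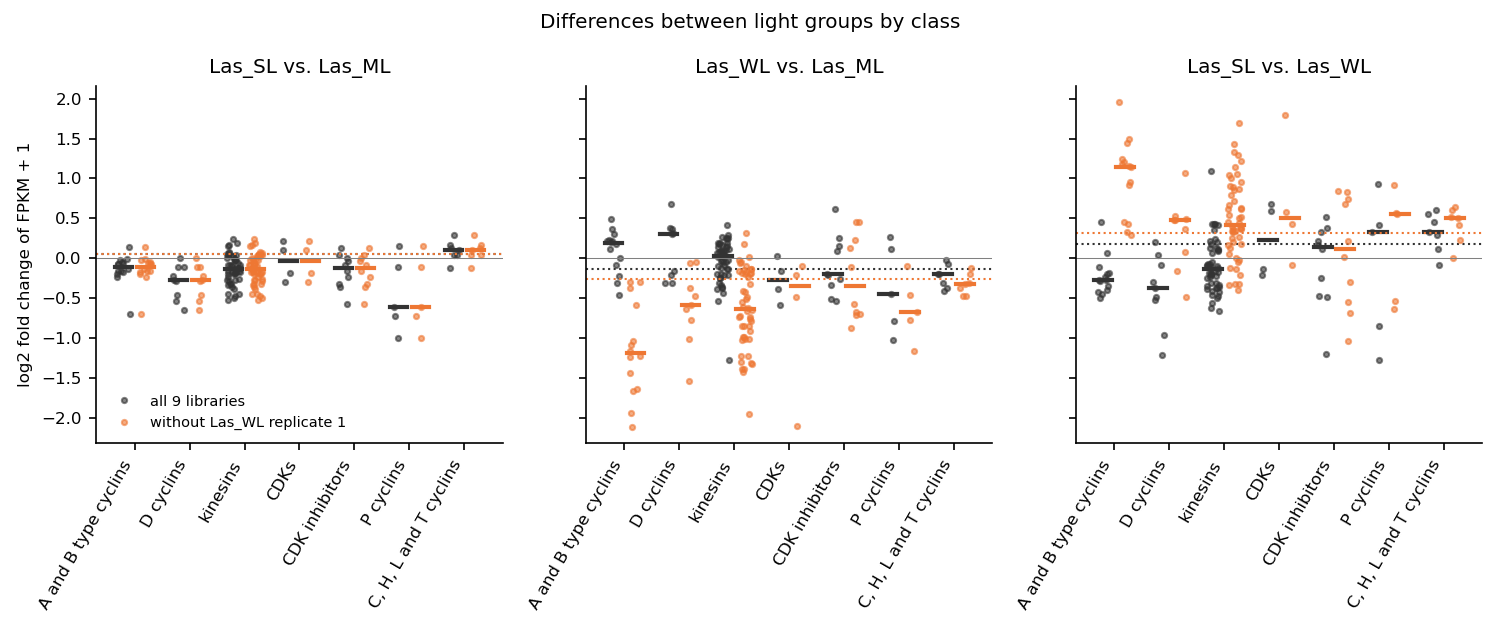
log2 fold changes of FPKM + 1 of the tested core genes in the 3 comparisons, 1 point per gene, with all 9 libraries (black) and without Las_WL1 (orange). Thick lines are class medians and dotted lines the median of all tested genes. Medians of A and B type cyclins move from 0.20 to -1.19 in Las_WL vs. Las_ML and from -0.28 to 1.15 in Las_SL vs. Las_WL.

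In Las_SL vs. Las_WL, 4 of the 261 tested genes were called higher and 1 lower in Las_SL, against 2.73% of all genes called higher, 0.199% called lower and 2.93% in all, so their share in all did not exceed the background. Without the limit on the fold change, 3 of the 99 core genes had an adjusted p below 0.05 (5.94% of all genes), and at an unadjusted p below 0.05 there were 12 higher and 1 lower (23.9% and 2.45% of all genes, 26.3% in all). The A and B type cyclins had a median log2 fold change of -0.28, which was 1.15 without Las_WL1 and 1.87 without Las_WL1 and Las_SL2, when that of all genes was 0.18, 0.32 and 0.36. KIN-5D (LOC111887547), like KIN-5C a spindle kinesin by its family, had an FPKM of 6.79, 8.26 and 7.37 in Las_SL, 12.9, 6.41 and 7.36 in the Las_ML libraries and 2.68, 2.43 and 3.87 in Las_WL. All 3 Las_WL libraries were below the other 6, and the gene did not share the order of CDK B2-2 (r = -0.263). Its log2 fold change was 1.10 ± 0.25 (SE), with an adjusted p of 0.046 (limma). The table holds a second row of the same gene name, without a description and at a lower FPKM, so the gene may be covered in part by each.

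The CDK inhibitor LOC111876716 was the gene called lower. Such inhibitors bind and block complexes of cyclin and CDK. Its FPKM was 1.51, 0.552 and 0.648 in Las_SL, 1.295, 1.88 and 2.22 in the Las_ML libraries and 4.31, 2.97 and 2.66 in Las_WL, and the Las_WL libraries were above all others. The log2 fold change of Las_SL vs. Las_WL was -1.19 ± 0.24 (SE), with an adjusted p of 0.038 (limma). Of the 10 CDK inhibitors it was the only one whose Las_WL libraries were all above the rest, which held for 0.799% of all genes. The 2 with the highest means, LOC111895927 and LOC111884575, had an FPKM of 10.4 to 13.5 and 8.06 to 8.71 in Las_SL, 11.0 to 12.8 and 7.20 to 8.09 in Las_ML, and 6.91 to 10.1 and 4.10 to 14.3 in Las_WL. In LOC111884575 the Las_WL libraries were the highest and the 2 lowest of all 9, with Las_WL1 at the top.

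The other 3 called genes were F-box genes, which encode subunits that select targets for ubiquitination in many organisms. LOC111880644 had an FPKM of 1.40, 2.59 and 1.68 in Las_SL, 0.948, 0.419 and 0.557 in the Las_ML libraries and 0.110, 0.108 and 0.168 in Las_WL. Its mean over the 9 libraries, 0.887, was near the limit for testing of 0.5 and came mostly from Las_SL. The group means were 1.89 in Las_SL, 0.641 in Las_ML and 0.129 in Las_WL. At such low values the size of its fold change depends strongly on the 1 added to the FPKM. LOC111905932 had an FPKM of 8.72, 15.6 and 11.4 in Las_SL, 8.36, 6.63 and 5.72 in the Las_ML libraries and 1.60, 2.44 and 3.95 in Las_WL. In both the 3 groups did not overlap and were ordered by light intensity. Both were picked by their call between Las_SL and Las_WL, and the share of all genes with such an order was not computed. LOC111884246 had an FPKM of 19.1, 22.3 and 37.9 in Las_SL, 2.41, 2.54 and 13.2 in the Las_ML libraries and 3.34, 5.92 and 1.95 in Las_WL, and its Las_ML and Las_WL libraries overlapped. Their log2 fold changes were 1.34, 1.83 and 2.56, with adjusted p-values of 0.025, 0.026 and 0.045 (limma), in the order LOC111880644, LOC111905932 and LOC111884246. For F-box genes as a whole the median within-group SD was 0.239 and 7 of 156 had r of at least 0.9 with CDK B2-2 (4.49%), near the values of all genes. LOC111900727 and LOC111917430, the most abundant of them, had an FPKM of 52.2 to 237 and 74.2 to 160 over the 9 libraries.

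The 5 calls depended on the settings of the test more than their fold changes did. All 5 were lost when the libraries were brought to a common scale, when only the 6 libraries of the comparison were fitted, and when any 1 of Las_SL2, Las_SL3, Las_ML2, Las_ML3 or Las_WL2 was left out, and the count over all genes then fell from 767 to between 0 and 11. Over the alternatives the log2 fold change kept its sign, at 0.87 to 1.32 for LOC111887547 (KIN-5D), -1.86 to -0.90 for LOC111876716, 1.12 to 3.09 for LOC111880644, 2.26 to 2.88 for LOC111884246 and 1.41 to 2.17 for LOC111905932. Leaving out a Las_ML library changes no fold change between Las_SL and Las_WL, only its error and the adjustment. The deposited FPKM of a library summed to 718394 to 721348 in Las_SL, 736187 to 763138 in the Las_ML libraries and 781623 to 813150 in Las_WL, and the median log2 fold change of all genes in Las_SL vs. Las_WL was 0.18. Changes in this comparison are therefore to be read against that shift, and with each library shifted to the same median it was -0.03.

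Cyclins C, H, L and T act on transcription together with kinases such as the C-type CDKs, and none of these genes was called in any comparison. The cyclin with the highest mean of the class, LOC111896680, had an FPKM of 17.9, 23.8 and 19.7 in Las_SL, 18.3, 15.3 and 15.7 in the Las_ML libraries and 13.0, 13.4 and 12.6 in Las_WL. LOC111905583, described as cyclin-L1-1, had an FPKM of 16.6 to 17.0 in Las_SL, 14.4 to 17.1 in the Las_ML libraries and 11.3 to 16.2 in Las_WL. All 3 Las_WL libraries were below the other 6 in 3 of 7 C, H, L and T cyclins and in 12 of the 99 core genes (12.1%), which was the case in 15.3% of all genes.

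Both C-2-like CDKs had all Las_WL libraries below the others as well. LOC111877036 had an FPKM of 12.2, 15.7 and 13.8 in Las_SL, 15.7, 11.6 and 11.5 in the Las_ML libraries and 7.06, 8.41 and 9.42 in Las_WL. LOC111877035 had an FPKM of 17.9, 21.7 and 20.1 in Las_SL, 18.6, 16.1 and 15.98 in the Las_ML libraries and 9.84, 15.1 and 13.9 in Las_WL. In each, Las_WL1 was the lowest library, whereas it was the highest for CDK B2-2. The most abundant core gene, LOC111878510, described as a cyclin dependent kinase without a letter, had an FPKM of 48.3 to 56.5 in Las_SL, 56.0 to 65.8 in the Las_ML libraries and 49.5 to 73.7 in Las_WL, and its groups overlapped.

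In Las_SL vs. Las_WL the log2 fold change of LOC111896680 was 0.61 ± 0.15 (SE; adjusted p = 0.050, limma), that of LOC111877036 was 0.68 ± 0.18 (adjusted p = 0.059) and that of LOC111877035 was 0.60 ± 0.18 (adjusted p = 0.081), so none of them passed the test. The median over the 7 C, H, L and T cyclins was 0.33, against 0.18 for all genes, and 0.11 with the libraries shifted to the same median. In Las_WL vs. Las_ML it was -0.20, and -0.02 after the shift, when none of the 7 passed an unadjusted p of 0.05 in either comparison. Without Las_WL1, 14 of the 99 core genes had an adjusted p below 0.05, against 21.6% of all genes, among them 5 of 7 C, H, L and T cyclins, 5 of 10 CDK inhibitors and both C-2-like CDKs. All but LOC111876716 were higher in Las_SL. With the limit on the fold change 2 of them were called, KIN-5D and LOC111876716 (4.12% of all genes).

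**Figure D5:**
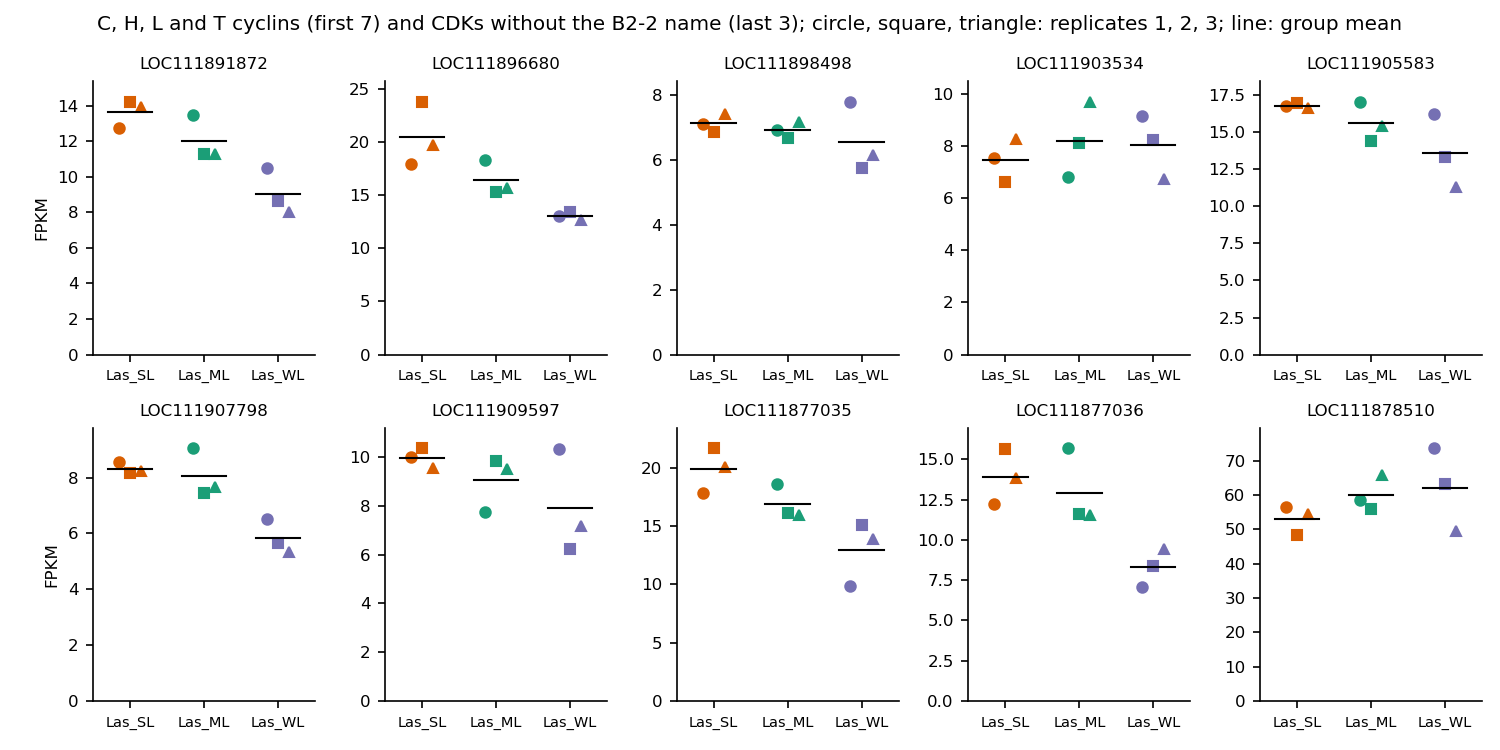
FPKM of the 7 tested C, H, L and T cyclins (first 7 panels) and of the 3 CDKs other than CDK B2-2 (last 3 panels) by light group, with 1 symbol per replicate and a line at the group mean. Las_WL is lowest in LOC111896680, LOC111891872, LOC111907798, LOC111877035 and LOC111877036 without overlap, and the groups overlap in the others.

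The genes placed as P cyclins were intermediate. LOC111921427, the most abundant, had an FPKM of 24.3, 11.1 and 27.5 in Las_SL, 27.0, 26.9 and 38.1 in the Las_ML libraries and 17.8, 13.8 and 12.3 in Las_WL. Las_SL2 was again the lowest library, but the highest was Las_ML3. LOC111917629, described as cyclin-P3-1, had an FPKM of 7.50 to 11.6 in Las_SL, 8.44 to 12.8 in the Las_ML libraries and 6.07 to 10.7 in Las_WL. The other cyclin-P3-1 gene, LOC111886418, named after its values were seen, had an FPKM of 2.79, 2.05 and 2.13 in Las_SL, 2.52, 1.56 and 1.94 in the Las_ML libraries and 0.709, 0.549 and 0.965 in Las_WL. The log2 fold change of LOC111886418 in Las_SL vs. Las_WL was 0.93 ± 0.18 (SE; adjusted p = 0.034, limma), just under the limit on the fold change.

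None of the remaining matches that were tested was called in any comparison. The TFIIB-like genes LOC111885620 and LOC111901859 had an FPKM of 15.97 to 21.7 and 12.1 to 20.9 over the 9 libraries, and the ribosome-recycling factor LOC111886410 had 39.5 in Las_SL2 to 90.5 in Las_WL2. LOC111917727, the gene annotated to chiasma assembly, did not exceed an FPKM of 0.145.

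Back-spliced reads, which mark circular RNAs (circRNAs), were a readout that the search did not use. Of 1650 deposited circRNAs, 13 came from 12 core genes, with 32 of 6836 back-spliced reads, at 398 to 1036 reads per library. In all, 20 of the 346 genes had a circRNA. The share of all genes with a circRNA was not computed, so these counts do not tell whether the genes had many or few. The cyclin H1-1 gene LOC111909597 gave 14 of the 32 reads from a single circRNA of 3 exons, with 3 reads in Las_SL2, 5 in Las_SL3, 4 in Las_ML3, 2 in Las_WL3 and 0 in the other 5 libraries. Each of the other 12 had 1 to 3 reads. They came from the A or B type cyclins LOC111884954 and LOC111915509 (with 2 circRNAs), the D cyclin LOC111887230, the kinase LOC111878510 and the kinesins LOC111896141, LOC111896985, LOC111905110, LOC111906379, LOC111912736, LOC111916017 and LOC111918101.

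Core genes had 5 of 398 back-spliced reads in Las_WL1, 6 of 990 in Las_SL2 and 10 of 747 in Las_ML3. By FPKM, most tested core genes were highest in Las_WL1 and lowest in Las_SL2. CDK B2-2, LOC111895651, LOC111883320 and LOC111889633 had none in any library. With so few reads, this does not show that these genes formed no circRNA. At this depth no difference between light groups could be read from the circRNAs of these genes.

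By name, 324 of the 346 genes were found in RefSeq's newer annotation (Lsat_Salinas_v11), where 27 pairs of them were direct neighbours, 22 of these pairs being F-box genes. Among the core genes 3 pairs were neighbours, the kinesins LOC111913017 and LOC111913016, the kinesins LOC111900376 and LOC111900377, and the CDK inhibitors LOC111895665 and LOC111895722. Neighbours could differ, as LOC111900376 ranged from an FPKM of 0.832 to 16.9 and LOC111900377 from 0.963 to 2.28. Sequences and positions of the genes were not used here.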

How the data were processed

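Per the paper, reads were trimmed with Cutadapt, checked with FastQC and mapped with Bowtie2 and TopHat2 to Lsat_Salinas_v7; the labels name HISAT2 2.0, StringTie 1.3.0 and Bowtie 0.12.2. The FPKM values of genes were computed and deposited by the authors, without read counts, and the counts of back-spliced reads per circRNA were deposited by the authors unnormalized. The 9 columns with a normalized circRNA signal were not used.

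log2(FPKM + 1) was fitted for 26145 genes (mean FPKM 0.5 or higher) over all 9 libraries with limma 3.58.1 (trend; R 4.3.3), without a block, with Benjamini-Hochberg adjustment, after the fit was tested on simulated data. P-values set a difference of group means against the spread between libraries within groups, estimated from all 9 libraries at 3 per group. Sums, SDs and correlations were computed in Python 3.11.15 (numpy 2.4.6, pandas 2.3.3, matplotlib 3.10.9). Genes were named by a rule: the 2 of each class with the highest mean FPKM, up to 5 called ones per comparison and class, all of a class of 4 or fewer, and those with a circRNA. Members and lists were chosen with earlier results of these data known. Alternatives were other pseudocounts, filters, scalings, thresholds, a replicate block and each library left out; leaving out Las_WL1 and Las_SL2 together, and all alternatives for SDs and correlations, were chosen after the data were seen.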

Additional observations from a re-analysis of the deposited data

How the results depend on the processing

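In Las_SL vs. Las_WL the 4 genes called higher and the 1 called lower became 0 and 0 with quantile normalization, with libraries shifted to the same median and with only the 6 libraries of the comparison. Without a filter 2 were called higher, and with a mean FPKM of at least 5 there were 0 called lower. At an unadjusted p below 0.05 with the same fold change 7 were higher, and the share of all genes by this rule was not computed. At an adjusted p below 0.05 without a minimum fold change 11 of 261 were higher, against 1483 of all 26145 genes. Leaving out each replicate in turn gave 0 to 5 called higher and 0 to 3 called lower, the 3 without Las_WL1. Over all genes 0 to 914 were called higher and 0 to 233 lower, the 233 without Las_WL1. The other 2 comparisons kept 0 of the 261 called. There, the unadjusted threshold called 4 higher in Las_SL vs. Las_ML and 3 lower in Las_WL vs. Las_ML, again without a share of all genes. With the replicate number as a block, 0 were called in either direction. Same-numbered libraries deviated together in 3 of 9 pairs (r from -0.52 to 0.56). The numbers were not used as pairs, although deviations from means of 3 libraries cannot exclude handling shared by number. The cause of the lost calls was not tested.

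The median within-group SD of the core genes was 0.530 without Las_SL2, 0.422 without Las_WL1 (all genes 0.213) and 0.281 without both Las_WL1 and Las_SL2, when that of all genes was 0.192. Of 2067 fold changes of named genes under an alternative, 56 lost a call, 171 changed sign without a call in either fit, and none reversed a call. The FPKM table gives no read counts, so the counting error of low values is not known, and 3 libraries per group limit every comparison.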
